A study of Mus musculus with 9 samples.

Results

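Uteri exposed to medium from arrested human embryos were compared with uteri exposed to medium from developmentally competent human embryos, 3 RNA sequencing libraries each. Every gene was valued by the FPKM (fragments per kilobase of transcript, scaled to the library's mapped fragments) summed over its annotated transcripts. Genes entered where these values averaged 1 FPKM or more across the 6 libraries: 13272 of the 35930 genes with an annotated transcript in the files, 11821 of them protein-coding. Just inside that limit stood Gm13231 at 1.0004 FPKM and just outside it Pou2f1 at 0.9995 FPKM.

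All mice were immature C57BL/6 females, 25 days old when medium was given, per the labels, and 21 days old in another sentence of the design text, a discrepancy left unsettled by the sources. They were primed over 3 days with 1 dose of 1 mg progesterone and with 10 mg/kg per day of estradiol, and each horn then received 50 µl of medium. The medium was pooled from 9 competent embryos, pooled from 18 arrested embryos, or left unconditioned for a control group of 3 further libraries. The number of embryos pooled thus went with embryo quality, and the effects of number and quality cannot be told apart. The labels give neither the number of separate media pools or animals behind the 3 libraries of a group, nor the interval before collection. All p-values therefore measure the spread between these libraries, which may be partly technical. The whole uterus was extracted, so fewer cells of a type and less RNA per cell cannot be told apart.

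The uterine lining receives an embryo only in a short window set by ovarian steroids. Estradiol drives proliferation of the epithelium and secretion of proteins such as lactoferrin and lipocalin 2, and it keeps a dense coat of mucins on the luminal surface, while progesterone holds back epithelial division and prepares the stroma for decidualization. Cells that secrete heavily depend on chaperones of the endoplasmic reticulum, which the unfolded protein response raises when misfolded proteins collect there. The series title names a maternal stress response of the endoplasmic reticulum to abnormal embryos, so the genes of that response were listed beside those of steroid action, cell division, mucins, immune cells and tissue composition.

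The number of reads is not given, and coverage amounted to between 1607 and 2360 Mb of sequence in the 6 libraries. On the leading principal component, with 20.8% of the variance, arrested library 3 lay at 60.8 and the other 8 libraries between -21.4 and 10.2. Within groups, the median SD of a gene on the log2(FPKM + 1) scale was 0.339 among arrested, 0.205 among competent and 0.238 among control libraries. The tissue label matched its markers: 16 of 18 markers of uterine epithelium, 14 of 14 of stroma and 11 of 14 of smooth muscle were above 0 in all 6 libraries. Arrested library 2 held 598 FPKM of the adipocyte gene Fabp4 against at most 82.4 in the other 8 libraries. Markers of ovary and oviduct summed to 46.8 FPKM in arrested library 3 and to between 1.57 and 6.21 FPKM in the other 8. The part of such neighbouring tissue in the values of arrested library 3 was not tested.

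Of the 13272 genes, 1245 were listed at 0 in at least 1 library while their other libraries averaged over 5 FPKM. Such zeros can be failed estimates, so these genes were not tested. In the remaining 12027 genes, limma with Benjamini-Hochberg adjustment called 12, or 0.0998%: 4 higher (0.0333%) and 8 lower (0.0665%) after arrested embryo medium. At an unadjusted p below 0.05 there were 1421 genes, or 11.8%, of which 682 (5.67%) were higher and 739 (6.14%) lower. All 3 arrested libraries stood above all 3 competent libraries in 970 genes (8.07%) and below them in 1115 (9.27%), together 17.3%. A difference of at least 1 on the log2(FPKM + 1) scale was found in 600 genes (4.99%), 259 (2.15%) higher and 341 (2.84%) lower, and without overlap of the groups in 143 (1.19%) and 196 (1.63%) of these. Differences above 0 made up 48.9% and those below 0 made up 51.1%. The median difference over all tested genes was -0.01 on the log2(FPKM + 1) scale, on which all differences below are given as arrested minus competent ± SE, and which understates changes of genes at low FPKM. The moderated spread came from all 9 libraries: a fit of only the 6 compared libraries called 0 genes, with 1171 at an unadjusted p below 0.05. Leaving out competent library 1, 2 or 3 gave 2, 0 and 0 calls, none of them among the 12. Without arrested library 2 or 3 there were 41 and 20 calls, of which 11 and 7 were among the 12, and without control library 1 there were 6.

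**Figure D1:**
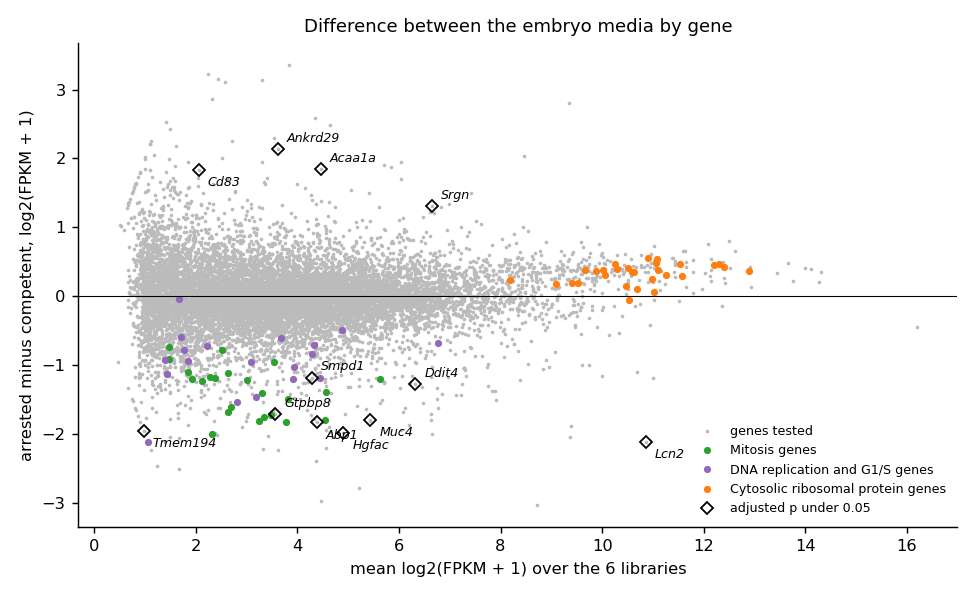
Arrested minus competent difference (y axis, log2(FPKM + 1)) against the mean level over the 6 libraries (x axis, log2(FPKM + 1)) for the 12027 tested genes in grey. Diamonds mark the 12 genes with an adjusted p below 0.05. The 23 mitosis genes (green) and 19 replication genes (purple) all lie below 0, and 28 of the 29 ribosomal protein genes (orange) lie above 0 at the right of the plot.

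Fell and rose are used for arrested relative to competent libraries, whatever the controls. Among the 8 genes that fell were products of the uterine epithelium, a stress-induced brake on growth signalling and enzymes of amine and lipid breakdown. Lcn2 (mm9 chr2:32240153-32243317), which encodes a secreted lipocalin that binds bacterial siderophores, stood at 3635, 3904 and 4050.1 FPKM after competent and 1301, 872 and 624 FPKM after arrested embryo medium. The lowest competent library held over 2 times as much Lcn2 RNA as the highest arrested library, and the control libraries lay between the groups at 2614, 2002 and 2419 FPKM. The difference was -2.11 ± 0.24 (limma adjusted p = 0.022).

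Muc4 (mm9 chr16:32735972-32782477), a membrane mucin of the luminal surface, was at 69, 96 and 76.5 FPKM in competent and 24.9, 24 and 18.1 FPKM in arrested libraries. The groups did not overlap, and the controls, at 58.2, 55.5 and 46.4 FPKM, again lay between them. The difference was -1.80 ± 0.18 (limma adjusted p = 0.016). Its most abundant annotated transcript, of 4566 bases, stood at 44.7, 66.4 and 46.2 FPKM in competent libraries and at 19.6, 0 and 13.6 FPKM in arrested libraries. In arrested library 2, where it was listed at 0, another protein-coding transcript of 4575 bases stood at 10.3 FPKM.

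Ddit4 (mm9 chr10:59412423-59414518), which encodes an inhibitor of the growth kinase complex mTORC1 that cells raise under hypoxia, energy stress and endoplasmic reticulum stress, stood at 128, 112 and 132 FPKM after competent and 51.8, 52.6 and 47.3 FPKM after arrested embryo medium. The difference was -1.27 ± 0.16 (limma adjusted p = 0.031), with controls at 77.7, 102 and 112 FPKM. All 3 arrested libraries were below the lowest control library. Smpd1 (mm9 chr7:112702874-112706902), the acid sphingomyelinase of lysosomes, was at 24.7, 30.7 and 30.2 FPKM and 12.5, 13.3 and 10.3 FPKM in the same order (-1.18 ± 0.16, limma adjusted p = 0.042).

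Abp1 (mm9 chr6:48845253-48859187) encodes diamine oxidase, a secreted enzyme that breaks down histamine and putrescine. It stood at 35.7, 47 and 33.7 FPKM after competent and 9.72, 7.33 and 14.1 FPKM after arrested embryo medium, a difference of -1.84 ± 0.23 (limma adjusted p = 0.031). The controls, at 14.9, 12.7 and 13.6 FPKM, overlapped the arrested libraries. Hgfac (mm9 chr5:35384202-35391085), a serine protease that activates hepatocyte growth factor, was at 56.5, 59.6 and 59.8 FPKM and 17.8, 11.7 and 13.2 FPKM (-1.99 ± 0.25, limma adjusted p = 0.033). The competent libraries were within 4 FPKM of each other, and the controls were spread from 24 to 47 FPKM. With assembled transcripts added, which held 28.7% of its arrested FPKM, Hgfac no longer passed (-1.52, limma adjusted p = 0.15), and control library 3, at 84.9 FPKM, stood above every competent library.

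For both remaining genes that fell, the difference lay in 1 transcript listed at 0 in every arrested and control library. Tmem194 (mm9 chr10:127103957-127138105), which encodes a protein of the inner nuclear membrane, stood at 3.02, 2.76 and 2.89 FPKM in competent libraries and was listed at 0 in the other 6 (limma adjusted p = 0.047). It reached the 1 FPKM mean through the competent libraries alone, and its competent level is below the 5 FPKM at which such zeros were set aside, so its call rests on zeros that may be failed estimates. Gtpbp8 (mm9 chr16:44736881-44746476), a GTP-binding protein gene, stood at 23.3, 20.6 and 18.1 FPKM after competent and 6.97, 4.51 and 5.41 FPKM after arrested embryo medium (limma adjusted p = 0.022). Its controls, at 6.58, 7.23 and 5.28 FPKM, overlapped the arrested and not the competent libraries. A transcript of 583 bases annotated as a nonsense-mediated decay product supplied 17.8, 15.3 and 15.1 FPKM of its competent values and was listed at 0 elsewhere. Its protein-coding transcript of 3415 bases did not separate the groups, at 5.48, 5.35 and 2.96 FPKM in competent and 6.97, 4.51 and 5.41 FPKM in arrested libraries. With coverage in place of FPKM the Gtpbp8 difference was -0.36 (limma adjusted p = 0.50), and with assembled transcripts added it was -1.58 (0.066).

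Of the 4 genes that rose, Cd83 and Srgn are known from immune cells. Cd83 (mm9 chr13:43880476-43898499), a surface protein that marks mature dendritic cells and activated lymphocytes, stood at 7.59, 6.26 and 6.89 FPKM after arrested and 1.39, 1.01 and 1.27 FPKM after competent embryo medium. Controls, at 3, 3.21 and 3.6 FPKM, lay between the groups, and the rise was 1.83 ± 0.19 (limma adjusted p = 0.016). Srgn (mm9 chr10:61956581-61990199), which encodes the proteoglycan core of leukocyte and mast cell granules, was at 165, 142 and 166 FPKM in arrested and 63.1, 65 and 60.6 FPKM in competent libraries, a rise of 1.31 ± 0.14 (limma adjusted p = 0.016). Its control libraries, at 172, 134 and 139 FPKM, overlapped the arrested and not the competent libraries. Both annotated Srgn transcripts with a value differed in the same direction, at 91.4 to 100.6 against 31.8 to 36.5 FPKM for the one of 694 bases and at 49.0 to 74.5 against 26.6 to 33.2 FPKM for the one of 938 bases.

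Markers of these leukocytes were at low levels. Of 16 dendritic and mast cell markers, 13 were above 0 in all 6 libraries, Epx was at 0 in all of them, and their summed level was 17.0 to 33.1 FPKM after arrested, 12.3 to 20.4 after competent and 14.8 to 21.5 after unconditioned medium. Of the 10 tested, Cd83 was the one called, and 6 had a difference above 0 (median 0.03). Erythroid markers, which report blood left in the tissue, summed to 2092 to 4843 FPKM in arrested, 748 to 3968 in competent and 937 to 1501 in control libraries, with 7 of 8 above 0 in all 6 libraries. The part of leukocyte number and of blood in the Cd83 and Srgn values was not tested.

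Ankrd29, an ankyrin repeat gene on chromosome 18, stood at 27.8, 19.9 and 27.2 FPKM after arrested and 3.73, 5.08 and 5.89 FPKM after competent embryo medium, a rise of 2.14 ± 0.27 (limma adjusted p = 0.031), with controls at 3.51, 7.44 and 5.93 FPKM. A transcript of 2675 bases annotated as a processed transcript supplied 27.8, 19.9 and 17 FPKM of its arrested values, against 0, 2.68 and 3.16 FPKM in competent libraries. The protein-coding transcript of 3242 bases did not separate the groups, at 0, 0 and 10.2 FPKM in arrested and 3.73, 2.4 and 2.73 FPKM in competent libraries. With assembled transcripts added Ankrd29 no longer passed (1.56, limma adjusted p = 0.075), as was also found for Hgfac, Gtpbp8 and Acaa1a among the 12. Acaa1a (mm9 chr9:119250412-119259413), a thiolase of peroxisomal fatty acid oxidation, was called at 47.7, 42.7 and 33.7 against 10.4, 12.5 and 9.26 FPKM (1.85 ± 0.17, limma adjusted p = 0.016). Its controls, at 42.1, 45.5 and 49.3 FPKM, overlapped the arrested and not the competent libraries. With assembled transcripts added its libraries stood at 47.7, 42.7 and 46 and 43.4, 48.4 and 44.5 FPKM, and the difference was 0.00. In competent libraries 76.4% of the Acaa1a FPKM lay in assembled transcripts, so the call rests on how reads were divided.

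**Figure D2:**
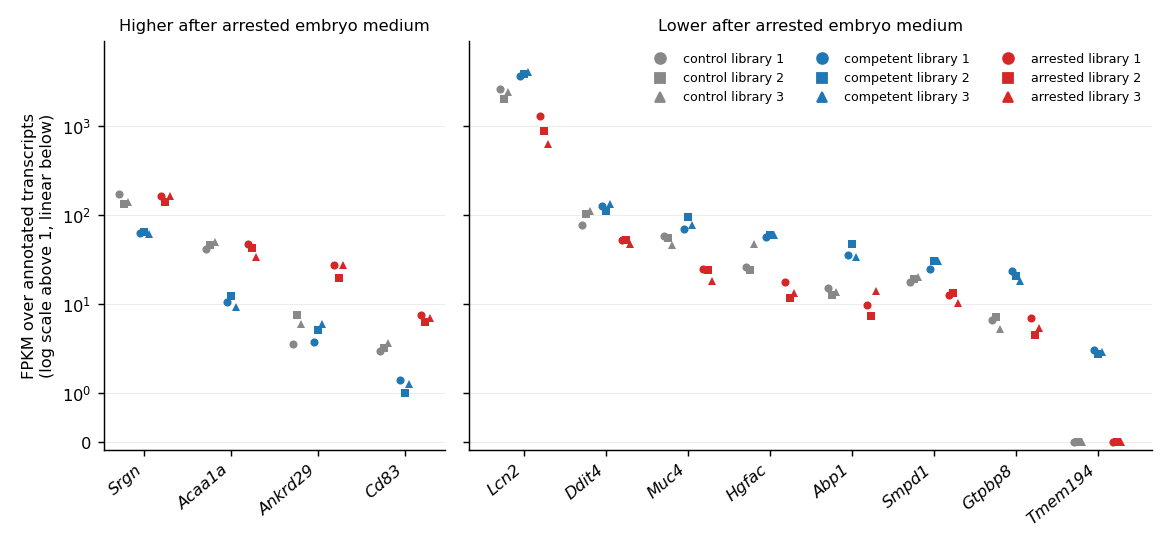
FPKM over annotated transcripts (y axis, logarithmic above 1 and linear below) of the 12 called genes in each of the 9 libraries, one point per library. The 3 arrested points (red) and the 3 competent points (blue) do not overlap in any of the 12, and the controls (grey) lie between or beside them. Tmem194 lies at 0 in every control and arrested library.

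The genes of next smallest p among those that stood higher did not pass the threshold. Wnt11, a WNT ligand of non-canonical signalling, stood at 35.5, 30.6 and 82.5 FPKM after arrested and 6.68, 1.6 and 3.46 FPKM after competent embryo medium (3.36 ± 0.48, limma adjusted p = 0.055). Controls, at 16.1, 15.7 and 8.04 FPKM, lay between the groups. Coch, which encodes the secreted matrix protein cochlin, was at 8.94, 8.83 and 30 against 1.09, 0.275 and 0.399 FPKM (3.22 ± 0.47, limma adjusted p = 0.057). Its competent mean was 0.589 FPKM, so Coch reached the 1 FPKM mean through the arrested libraries. With assembled transcripts added, both passed, at 3.29 (limma adjusted p = 0.042) for Wnt11 and 3.38 (0.025) for Coch. Vit, another secreted matrix protein gene, stood at 7.93, 14.7 and 8.73 against 2.76, 2.37 and 2.17 FPKM (1.70 ± 0.27, limma adjusted p = 0.075). Sec23b, a component of the COPII coat that carries cargo out of the endoplasmic reticulum, was at 214, 198 and 223 against 101, 85.6 and 131 FPKM (1.01 ± 0.16, limma adjusted p = 0.075).

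Annotated transcripts alone misstate some genes, since Cufflinks also assembled transcripts in each library and assigned reads to them. Arg1, the arginase of the urea cycle, stood at 16.7, 69.9 and 86.3 FPKM in competent and 10.1, 10.3 and 15.9 FPKM in arrested libraries over annotated transcripts (-1.90 ± 0.51, limma adjusted p = 0.24). With assembled transcripts the competent values were 50.6, 69.9 and 86.3 FPKM and the difference was -2.41 (limma adjusted p = 0.016). Asna1, an ATPase for the insertion of membrane proteins anchored by their tail, went the other way. Over annotated transcripts it was at 37.4, 34 and 29 FPKM in arrested and 49, 42.2 and 47.6 FPKM in competent libraries, and with assembled transcripts at 146, 87.7 and 115 and 49, 42.2 and 47.6 FPKM, so its difference turned from -0.46 to 1.28 (limma adjusted p = 0.31 and 0.042).

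Both ovarian steroid receptors were affected by that division. Esr1, the estrogen receptor, was listed at 0 over annotated transcripts in 8 of 9 libraries, and with assembled transcripts it stood at 43.3, 76.6 and 92.6 FPKM in arrested and 54.5, 103 and 99.9 FPKM in competent libraries (-0.29, limma adjusted p = 0.77). Pgr, the progesterone receptor, was listed at 0 over annotated transcripts in 6 of 9 libraries and stood at 40.1, 48.5 and 28.8 FPKM in arrested and 31.5, 30.1 and 36.6 FPKM in competent libraries with assembled transcripts (0.22, limma adjusted p = 0.75). In both genes the groups overlapped.

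**Figure D3:**
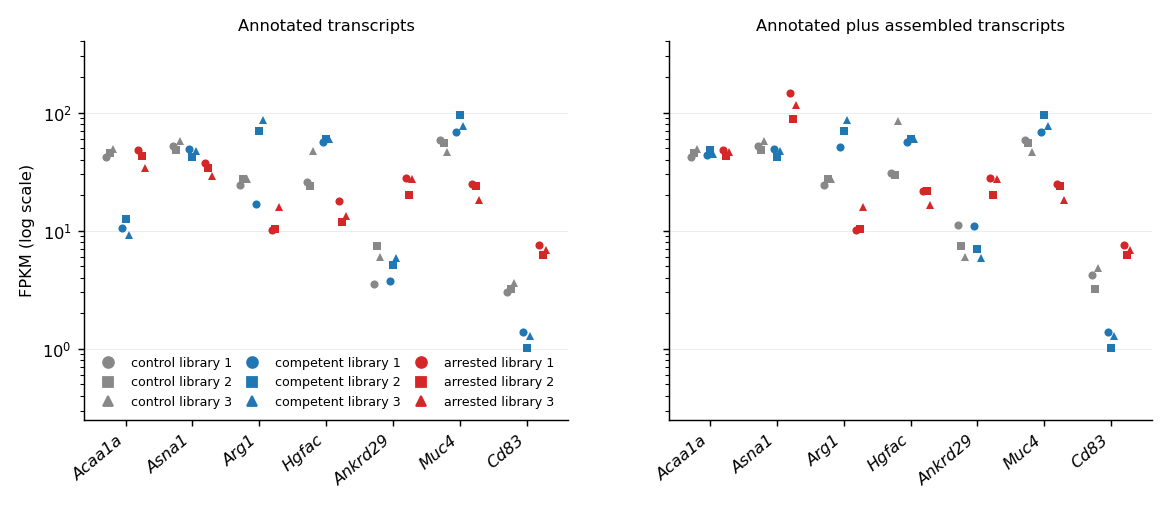
FPKM (y axis, log scale) of 7 genes in each library over annotated transcripts (left) and with assembled transcripts added (right), one point per library. The Acaa1a groups come together and the Asna1 groups swap order from left to right, the competent library 1 value of Arg1 moves up to the other competent values, and Muc4 has the same values in both panels.

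Estradiol-responsive genes of the uterus stood lower after arrested embryo medium across most of the list. Of 27 tested, Muc4 and Lcn2 fell, 24 had a difference below 0, and the median difference was -1.06 against -0.01 over all tested genes. In 17 of the 27 all arrested libraries were below all competent libraries, where 9.27% of all genes were, and 18 had an unadjusted p below 0.05 in that direction, where 6.14% of all genes had. The mean level of the list relative to all 9 libraries was 0.40, 0.28 and 0.40 in competent, 0.12, 0.07 and 0.05 in control and -0.33, -0.32 and -0.67 in arrested libraries, 3 ranges that did not overlap. Without any one of the 6 libraries the median stayed between -1.12 and -0.82. The list, like the others here, was written with earlier results of these data known. Its members were not signed by how estradiol moves them, so these counts give no direction of hormone action.

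Other members stood in the same order without passing the threshold. Ltf, which encodes the iron-binding secretion lactoferrin, stood at 3431, 3351 and 2575 FPKM after competent and 1885, 1145 and 1137 FPKM after arrested embryo medium (-1.20 ± 0.23, limma adjusted p = 0.13). Cdkn1a, the CDK inhibitor p21, was at 14.2, 11.6 and 11.9 and 2.98, 4.84 and 5.75 FPKM (-1.32 ± 0.23, limma adjusted p = 0.099). Sprr2f, a small proline-rich protein of the epithelial envelope, was at 949, 1368 and 1632 and 513, 480.1 and 169.6 FPKM (-1.88 ± 0.42, limma adjusted p = 0.19), and reads of the near-identical Sprr2 genes may be divided between them. Among the 3 members with a difference above 0, Txnip stood at 505, 512 and 519 against 354, 173 and 306 FPKM (0.94 ± 0.34, limma adjusted p = 0.35), and Cyp26a1, a retinoic acid hydroxylase, stood at 12.7, 5.06 and 299 against 3.73, 1.61 and 1.97 FPKM (3.14 ± 1.19, limma adjusted p = 0.36), with arrested library 3 far above the rest. Both were named after their values were seen, as was the third, Greb1, with a difference of 0.11. The palindromic estrogen response element was found in 0 of 24 RefSeq promoters of the list and in 0.074% of all promoters, on both strands, which says only that these letters are not in the 300 bases searched.

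Mucins and the enzymes that decorate them followed the same order. Of 12 tested, Muc4 fell, 10 had a difference below 0 and the median was -1.20. In 9 of the 12 the arrested libraries were below the competent libraries, where 9.27% of all tested genes were. Muc20, a membrane mucin, stood at 84.2, 86.1 and 80.9 FPKM after competent and 39.9, 32.7 and 16.4 FPKM after arrested embryo medium (-1.56 ± 0.28, limma adjusted p = 0.10). Muc1, a mucin of the luminal surface that declines before attachment in mice, was at 234, 269.6 and 232 and 160.3, 105 and 43.6 FPKM (-1.43 ± 0.38, limma adjusted p = 0.24). Arrested library 3 was the lowest for both and lay at -0.98 on the level of the list, where the other arrested libraries lay at -0.27 and -0.26. Without it the median was -0.83.

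Markers of the epithelium were read beside these lists. The 18 of them summed to 2706 to 3977 FPKM in arrested, 3654 to 4083 in competent and 3341 to 4101 in control libraries, so the groups overlapped, and none was at 0 in all 6 libraries. Of 16 tested, 11 had a difference below 0 (median -0.16, and -0.36 and -0.03 without arrested library 1 and 2). Muc1, described above, is one of them, and Elf3, an ETS transcription factor of epithelia, stood at 385, 246 and 402 FPKM in competent and 119, 130.3 and 159.7 FPKM in arrested libraries (-1.31 ± 0.21, limma adjusted p = 0.074, and 0.033 with assembled transcripts added). Cdh1, which encodes E-cadherin, was at 176, 152 and 165 and 123, 104 and 112 FPKM (-0.54 ± 0.12, limma adjusted p = 0.19). The part of epithelial content in the differences of secretory genes was not tested.

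**Figure D4:**
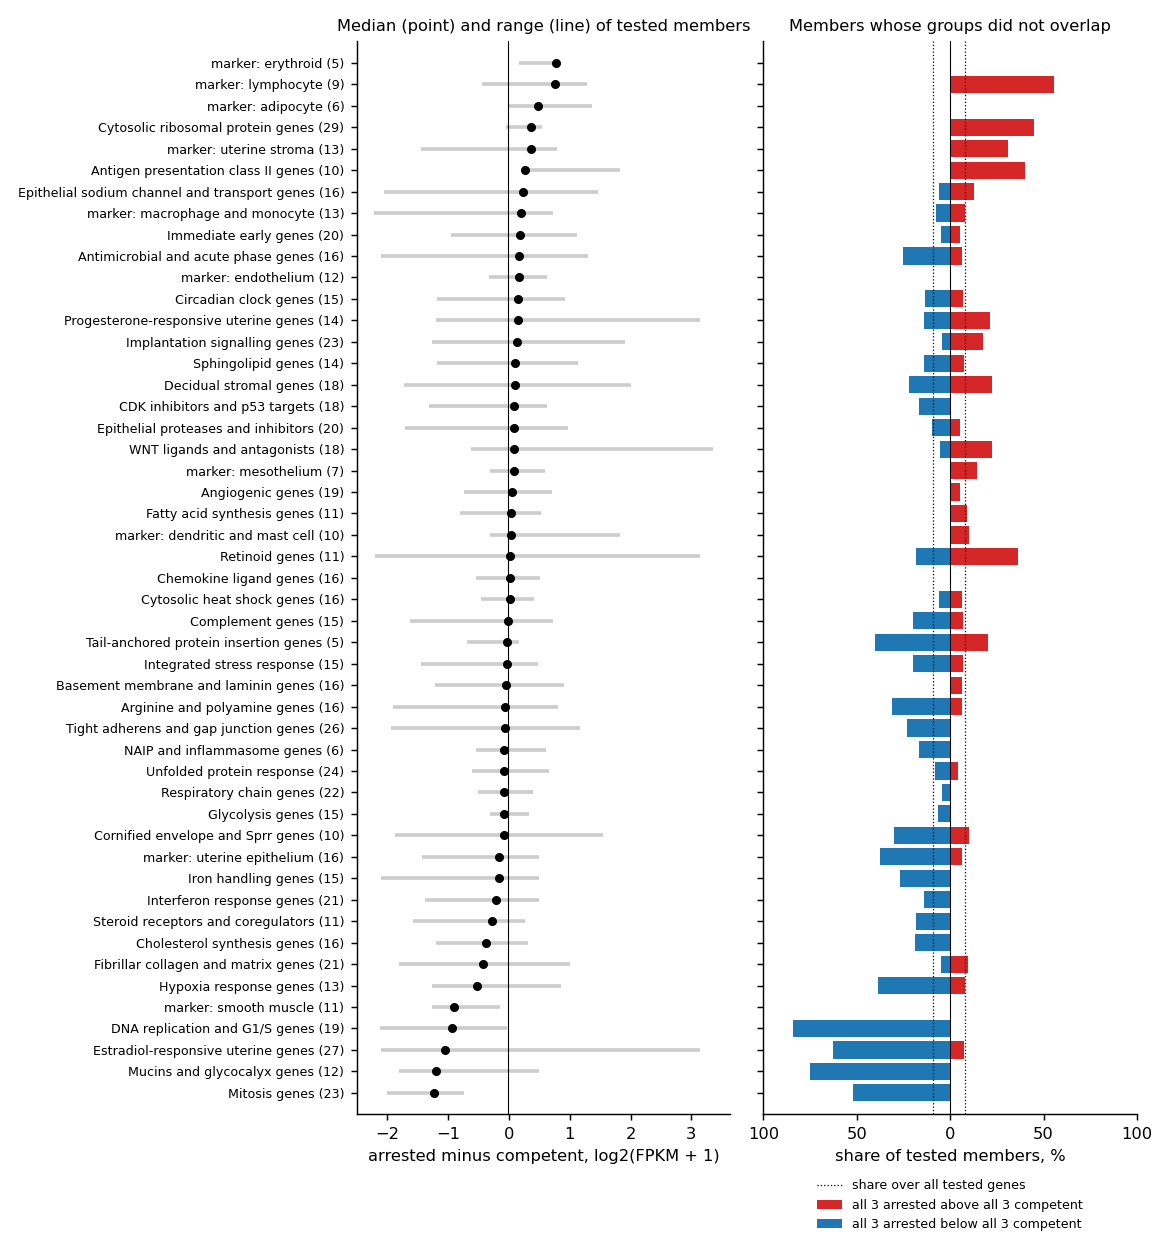
Left, median (point) and range (line) of arrested minus competent differences (x axis, log2(FPKM + 1)) for every gene list with at least 5 tested members, their number in brackets. Right, share of members (x axis, %) whose arrested libraries all lay above (red) or below (blue) the competent libraries, with dotted lines at 8.07% and 9.27%, the shares of all tested genes. Mitosis, mucin, estradiol and replication lists lie at the bottom, with medians from -1.24 to -0.93.

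Genes of cell division stood lower after arrested embryo medium throughout both lists. All 23 tested mitosis genes had a negative difference, from -2.00 to -0.74 with a median of -1.24, and 19 had an unadjusted p below 0.05, where 6.14% of all tested genes had one in that direction. None passed the adjusted threshold in limma, and without competent library 3 the count at an unadjusted p below 0.05 was 9. In 12 of the 23 the arrested libraries were below the competent libraries, where 9.27% of all tested genes were. All 19 tested genes of DNA replication and S phase entry were negative too, with a median of -0.93, an unadjusted p below 0.05 in 13 and non-overlapping groups in 16. None of these passed either.

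Plk1, the kinase that drives mitotic entry, stood at 6.05, 8.67 and 13.9 FPKM after competent and 0.521, 4.35 and 0.952 FPKM after arrested embryo medium (-2.00 ± 0.46, limma adjusted p = 0.19). Its controls were at 2.3, 2.07 and 2.12 FPKM. Birc5, the survivin subunit of the chromosomal passenger complex, was at 15.7, 28.9 and 33.2 and 3.34, 12.6 and 5.47 FPKM (-1.83 ± 0.44, limma adjusted p = 0.20), and Mad2l1 of the spindle checkpoint at 31.2, 38.9 and 43 and 13.1, 22.7 and 8.27 FPKM (-1.39 ± 0.35, limma adjusted p = 0.22). In all 3 genes arrested library 2 was the highest of its group.

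Among replication genes, Rrm2, the regulated subunit of ribonucleotide reductase, was at 8.38, 13.9 and 11.3 FPKM after competent and 1.54, 4.85 and 3.68 FPKM after arrested embryo medium (-1.54 ± 0.33, limma adjusted p = 0.17). Uhrf1, which couples DNA methylation to replication, was at 12.8, 15.6 and 14.1 and 2.61, 6.89 and 4.73 FPKM (-1.47 ± 0.33, limma adjusted p = 0.19). Ccne2, cyclin E2, stood at 2.94, 2.95 and 4.29 FPKM in competent libraries and was listed at 0 in all arrested libraries (limma adjusted p = 0.17). It was also listed at 0 in control library 3. Ccne2 reached the 1 FPKM mean through the competent libraries alone, and its zeros may be failed estimates. It is included in the counts of the replication list above.

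The level of the mitosis list was 0.42, 0.96 and 1.33 in competent, -1.12, 0.52 and -0.79 in arrested and -0.23, -0.44 and -0.67 in control libraries. Arrested library 2 lay above competent library 1, so the groups overlapped, whereas the replication list did not overlap at 0.37, 0.69 and 0.61 against -0.52, -0.08 and -0.58. Without arrested library 2 the mitosis median was -1.76 and 4 members passed the threshold. Smooth muscle markers showed a similar order of libraries. All 11 tested had negative differences (median -0.91, and -0.42 with 9 negative without arrested library 1), none was called, and their list stood at -0.09, 0.81 and 0.53 in competent and -1.19, 0.48 and -0.46 in arrested libraries. Their summed level of 903 to 2276 FPKM in arrested libraries overlapped the 1478 to 2948 FPKM in competent libraries, the controls were at 1666 to 1785 FPKM, and none of the 14 was at 0 in all 6 libraries. On the smooth muscle list library 1 was the lowest and library 2 the highest of every group, with controls at -0.13, 0.12 and -0.08. With replicate number added to the fit, 7 of the 11 tested markers had an unadjusted p below 0.05, against 1 without it. Over all 12027 tested genes these counts, in either direction, were 1463 and 1421. The part of smooth muscle content in the cell division genes was not tested.

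**Figure D5:**
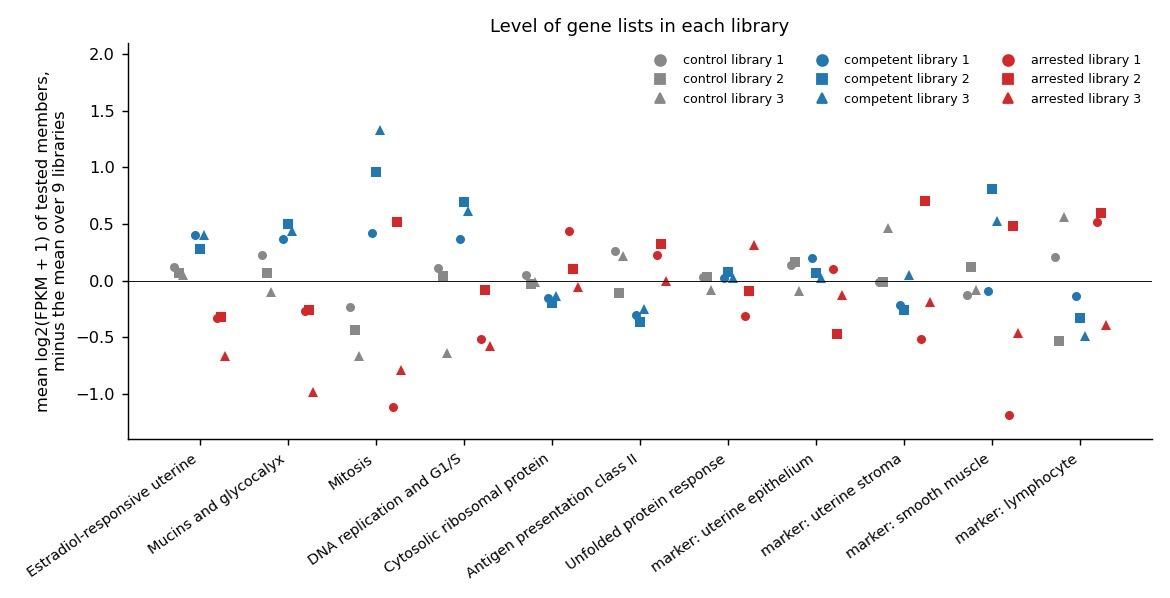
Mean log2(FPKM + 1) of the tested members of 11 lists in each library, minus the mean over 9 libraries (y axis), one point per library. Estradiol, mucin and replication lists keep the arrested (red) and competent (blue) libraries apart, while the mitosis and smooth muscle lists show arrested library 2 (red square) at 0.52 and 0.48, among the competent libraries.

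Many cell division promoters share short elements through which genes are held silent in resting cells and released in cycling ones, which is why 2 of them are shown. The element TTTGAA, known as the cell cycle homology region, was searched on both strands of the RefSeq promoters (GRCm38.p6, 250 bases before to 50 after the start). It occurred for 13 of the 21 mitosis genes with a promoter (61.9%), against 20.2% of all 27025 genes with one. The 5 E2F site spellings searched on both strands (TTTGGCGC, TTTCCCGC, TTTGGCGG, TTTCGCGC and TTTGCCGC) occurred for 6 of 14 replication genes (42.9%) against 3.18% of all genes. A match is a description of letters and not a measured binding site. The Plk1 window, at chr7:122159185-122159484 on the plus strand, has TTTGAA in capitals, from 31 bases after the start, and the Uhrf1 window, at chr17:56304063-56304362 on the plus strand, has an E2F spelling in capitals, from 185 bases before the second of its RefSeq starts.
Plk1: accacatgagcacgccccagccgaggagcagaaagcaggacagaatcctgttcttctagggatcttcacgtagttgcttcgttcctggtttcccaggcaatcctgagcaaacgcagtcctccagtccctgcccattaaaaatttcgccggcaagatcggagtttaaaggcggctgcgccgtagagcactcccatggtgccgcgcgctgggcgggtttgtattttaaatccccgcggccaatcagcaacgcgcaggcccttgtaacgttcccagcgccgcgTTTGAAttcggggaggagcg
Uhrf1: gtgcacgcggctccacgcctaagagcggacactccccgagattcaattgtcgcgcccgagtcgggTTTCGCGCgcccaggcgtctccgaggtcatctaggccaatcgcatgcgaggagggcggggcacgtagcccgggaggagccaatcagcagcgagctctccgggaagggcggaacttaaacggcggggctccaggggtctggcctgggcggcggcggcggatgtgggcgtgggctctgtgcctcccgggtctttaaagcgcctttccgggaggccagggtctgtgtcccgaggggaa

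Genes of the unfolded protein response stood on both sides of 0. None of the 24 tested passed the limma threshold, 8 had a difference above 0 and 16 below, and the median was -0.09. At an unadjusted p below 0.05 there was 1 gene in each direction, Xbp1 above and Calr below, where 11.8% of all genes had such a p. Hspa5, the main chaperone of the endoplasmic reticulum, stood at 391, 189.9 and 301 FPKM after competent, 136, 302 and 334 FPKM after arrested and 406, 338 and 326 FPKM after unconditioned medium. Its groups overlapped, and the difference of -0.23 ± 0.36 (limma adjusted p = 0.86) was smaller than its SE. Xbp1, a transcription factor switched on when IRE1 splices its RNA, was at 80.8, 79.6 and 156 FPKM after arrested and 54, 66.4 and 77.9 FPKM after competent embryo medium (0.61 ± 0.26, limma adjusted p = 0.40), with arrested library 3 the highest. Calr, the chaperone calreticulin, was at 217, 198 and 256 and 282, 351 and 354 FPKM (-0.55 ± 0.17, limma adjusted p = 0.31).

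The list as a whole stood at 0.02, 0.08 and 0.02 in competent and -0.31, -0.09 and 0.31 in arrested libraries, so the arrested libraries lay on both sides. Without arrested library 3, 20 of 24 genes were below 0, 5 of them at an unadjusted p below 0.05 and none above at it, with a median of -0.25. Without arrested library 1, 13 were above 0 and the median was 0.02. Herpud1, a gene of the degradation machinery at the same membrane, was at 27.4, 52.1 and 34.1 against 25.3, 28 and 26.3 FPKM (0.45 ± 0.43, limma adjusted p = 0.75). The element that the sensor ATF6 recognizes in these promoters, the ER stress response element, was searched on both strands and includes the shorter CCAAT box. It occurred for 8 of the 20 genes with a RefSeq promoter (40%) and for 0.137% of all genes. The Hspa5 window, at chr2:34771840-34772139 on the plus strand, is shown because Hspa5 is the common reporter of this response. The capitals mark the element, which starts 65 bases before the start.
Hspa5: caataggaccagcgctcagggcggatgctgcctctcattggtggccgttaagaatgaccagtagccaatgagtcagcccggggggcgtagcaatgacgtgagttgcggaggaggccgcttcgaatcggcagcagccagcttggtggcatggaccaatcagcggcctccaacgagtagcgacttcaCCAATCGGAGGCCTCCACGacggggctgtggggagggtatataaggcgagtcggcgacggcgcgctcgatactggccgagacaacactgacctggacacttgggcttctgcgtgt

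The integrated stress response, which responds to shortage of amino acids and to unfolded proteins through ATF4, was likewise spread around 0. Of 15 tested genes, Ddit4 fell and none rose, 7 differences were above 0 and the median was -0.04, a value that turned to 0.03 and 0.04 without arrested library 1 and 2. Atf4 stood at 78.3, 81.7 and 102 FPKM after arrested and 89.4, 98.9 and 80.9 FPKM after competent embryo medium (-0.04 ± 0.14, limma adjusted p = 0.95). Ddit3, the proapoptotic factor CHOP, was at 14, 14.1 and 13.9 FPKM in competent libraries and listed at 0, 24.1 and 21 FPKM in arrested libraries, and the 0 kept it out of the test. Psat1, a serine synthesis enzyme, was at 21.3, 19.1 and 9.61 against 34, 24.4 and 26 FPKM (-0.78 ± 0.28, limma adjusted p = 0.35). Of 16 cytosolic heat shock genes, 8 were above and 8 below 0 and none was called. Hspa8, the constitutive HSC70, stood at 2307, 2228 and 2072 FPKM after arrested and 2090.2, 1573 and 2098 FPKM after competent embryo medium (0.21 ± 0.15, limma adjusted p = 0.65).

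Ribosomal protein genes stood slightly higher. Of 29 tested, 28 had a difference above 0, the median was 0.37, and none was called. An unadjusted p below 0.05 was found in 12, all of them higher, where 5.67% of all tested genes had one in that direction. In 13 the arrested libraries were above the competent libraries, where 8.07% of all genes were. With quantile normalization the count above 0 was 22, the median 0.10 and the count at an unadjusted p below 0.05 was 2. Other highly expressed genes did the same: of 256 tested genes outside the list with a mean of 500 FPKM or more, 195 had a difference above 0, with a median of 0.31. The ribosomal protein genes, 28 of 29 of them at that level, were thus close to other genes as abundant, and with quantile normalization these 256 had a median of 0.09. Processed pseudogenes may share reads of these genes. Arrested library 1 was the highest on the list at 0.44, and the median without it was 0.20. Of 22 respiratory chain genes, 8 were above and 14 below 0 (median -0.09, and -0.19 and -0.01 without arrested library 1 and 3), and none of 15 glycolysis genes had an unadjusted p below 0.05.

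Hypoxia response genes were more often below 0, with Ddit4 called, 9 of 13 differences below 0 and a median of -0.53. The median was -0.29 without arrested library 3 and -0.26 with assembled transcripts added. Bhlhe40, a repressor that links hypoxia to the circadian clock, stood at 65.4, 77.9 and 67.6 FPKM after competent and 35, 29.3 and 27 FPKM after arrested embryo medium (-1.19 ± 0.18, limma adjusted p = 0.070). Egln3, a prolyl hydroxylase that marks hypoxia-inducible factor for degradation, was at 6.75, 10.8 and 10.2 and 4.63, 2.17 and 4.53 FPKM (-1.13 ± 0.27, limma adjusted p = 0.20). Cholesterol synthesis genes were below 0 in 13 of 16 (median -0.38), none of them called.

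Of 16 arginine and polyamine genes, Abp1 fell and the median was -0.06. Ass1, which feeds arginine synthesis, stood at 31.2, 31.5 and 31.6 FPKM after competent and 12.8, 12.2 and 5 FPKM after arrested embryo medium (-1.65 ± 0.38, limma adjusted p = 0.19). Of 15 iron handling genes, Lcn2 fell and the median was -0.16, and of 14 sphingolipid genes, Smpd1 fell and the median was 0.10.

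Complement genes had a median difference of -0.01. No complement gene of 15 was called, and 7 of the differences were above 0. An unadjusted p below 0.05 was found in 3, all lower, where 6.14% of all tested genes had one in that direction. Cfb, the protease of the alternative pathway, stood at 564, 548 and 422 FPKM after competent and 237, 208 and 209.5 FPKM after arrested embryo medium (-1.21 ± 0.18, limma adjusted p = 0.057), and it passed with assembled transcripts added (-1.21, limma adjusted p = 0.042). C3, the central component, was at 2695, 2123 and 2449 and 765, 1166 and 1604 FPKM (-1.10 ± 0.25, limma adjusted p = 0.19). Pglyrp1, a peptidoglycan-binding antibacterial protein, was at 168, 213 and 162 and 71.6, 39.7 and 88.7 FPKM (-1.49 ± 0.27, limma adjusted p = 0.10). The 16 antimicrobial and acute phase genes had a median of 0.17, with Lcn2 as the one call.

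Immune cell genes pointed in several directions. All 10 tested genes of class II antigen presentation had a difference above 0 (median 0.27, and 0.41 without arrested library 3), of which Cd83 rose. H2-Aa, a class II chain, stood at 139, 135 and 89 FPKM after arrested and 69.8, 78.2 and 60.5 FPKM after competent embryo medium (0.77 ± 0.24, limma adjusted p = 0.31), and its controls, at 157, 91.8 and 138 FPKM, lay above the competent libraries as well. Of 9 lymphocyte markers, 5 had an unadjusted p below 0.05, all of them higher, where 5.67% of all tested genes had one in that direction. None was called, and differences were above 0 in 6 and below 0 in 3. The median of all 9 was 0.76, and 1.18 without arrested library 3. Without arrested library 1 it was 0.58, with 2 markers at an unadjusted p below 0.05. Of the 4 markers with a mean of at least 5 FPKM, 2 were above 0 and 1 had such a p (median 0.24). The 5 were Cd2, Nkg7, Klrb1c, Ncr1 and Gzmb, of which the last 4 are known from natural killer cells and their granules, Ncr1 and Gzmb being named after their values were seen. Nkg7 was at 16.1, 12.7 and 8.89 FPKM after arrested and 6.75, 5.97 and 2.02 FPKM after competent embryo medium (1.28 ± 0.42, limma adjusted p = 0.32), with controls at 12.3, 7.27 and 17.2 FPKM. The summed level of 17 lymphocyte markers was 29.5 to 72.8 FPKM in arrested, 28.6 to 39.7 in competent and 27.1 to 72.4 in control libraries, so the groups overlapped.

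Itgam, the integrin of neutrophils and macrophages, was at 19, 23 and 20.3 FPKM after competent and 2.51, 5.01 and 3.79 FPKM after arrested embryo medium (-2.22 ± 0.39, limma adjusted p = 0.098), and it passed with assembled transcripts added (-2.22, limma adjusted p = 0.042). Of the 13 macrophage markers, which include Itgam, 9 had a difference above 0 and the median was 0.20. Ms4a7, a macrophage membrane protein, was at 17.6, 12 and 10.8 FPKM after arrested and 9.41, 7.37 and 6.21 FPKM after competent embryo medium (0.73 ± 0.30, limma adjusted p = 0.39). Neutrophil markers summed to 4.33 to 10.4 FPKM in arrested and 7.26 to 27.8 in competent libraries, and the controls, at 4.80 to 38.9 FPKM, spanned both. None of 16 chemokine genes had an unadjusted p below 0.05. Of 21 interferon response genes, 14 were below 0 (median -0.22) and none was called.

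Genes of receptivity and of the stroma were mixed. Of 23 implantation signalling genes, 14 were above 0 (median 0.13) and none was called. Lif, the cytokine required for implantation in mice, stood at 1.08, 1.23 and 0.473 FPKM after arrested and 2.25, 1 and 2.27 FPKM after competent embryo medium (-0.55 ± 0.36, limma adjusted p = 0.60). Lif reached the mean level set for entry through the competent libraries. Hbegf, the epidermal growth factor ligand of the attachment site, was at 10, 4.89 and 13.2 and 9.81, 8.53 and 5.82 FPKM (0.13 ± 0.32, limma adjusted p = 0.92). Ptgs2, the inducible cyclooxygenase, was at 1.27, 2.33 and 5.47 against 0.708, 0.55 and 0.677 FPKM (1.15 ± 0.38, limma adjusted p = 0.32), highest in arrested library 3. It reached the mean level set for entry through the arrested libraries.

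Of 14 progesterone-responsive genes, 8 were above 0 (median 0.14) and none was called. Members of this list and of the estradiol list were not signed by how the hormone moves them. Their counts and medians therefore give no direction of hormone action. The direction rested on arrested library 2: without arrested library 2 the median was -0.11 with 6 above 0, while without arrested library 1 it was 0.35 with 10 above 0. Of the 3 members of smallest p, Ltf, given above among estradiol-responsive genes, and Gata2 stood lower. Gata2, a transcription factor that acts with the progesterone receptor, was at 33, 41.6 and 26.4 FPKM after arrested and 56.8, 53.3 and 50.1 FPKM after competent embryo medium (-0.67 ± 0.18, limma adjusted p = 0.23). Hoxa11, a stromal homeobox gene needed for decidualization, stood higher and was at 30, 50.9 and 31.4 FPKM after arrested and 19.2, 20.9 and 24.1 FPKM after competent embryo medium (0.74 ± 0.21, limma adjusted p = 0.27). Decidual genes were above 0 in 12 of 18 (median 0.10) with none called. Alpl, the alkaline phosphatase that decidual cells raise, was at 5.56, 7.49 and 20.7 against 27, 42.4 and 35.1 FPKM (-1.73 ± 0.40, limma adjusted p = 0.19), and Igfbp3, an insulin-like growth factor binding protein, at 39.7, 63.5 and 138 against 26.9, 20.6 and 26 FPKM (1.5 ± 0.38, limma adjusted p = 0.21). WNT ligands and antagonists were above 0 in 10 of 18 (median 0.09), none of them called. The antagonists Dkk3, at 9.41, 18.7 and 16.9 against 8.88, 6.78 and 4.89 FPKM (1.01 ± 0.31, limma adjusted p = 0.31), and Sfrp2, at 14, 21.1 and 24.7 against 12.3, 12.5 and 11.1 FPKM (0.66 ± 0.23, limma adjusted p = 0.34), stood higher without overlap, as did Wnt11.

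Of 21 collagen and matrix genes, 15 were below 0 (median -0.43) and none was called. Col6a3, a chain of the microfibrillar collagen VI, was at 57.7, 67.6 and 36.2 FPKM after arrested and 174, 138 and 261 FPKM after competent embryo medium (-1.80 ± 0.46, limma adjusted p = 0.21). Dcn, the collagen-binding proteoglycan decorin, stood the other way at 792, 1281 and 1012 against 657, 523 and 687 FPKM (0.71 ± 0.19, limma adjusted p = 0.23), as did Mmp2, a gelatinase, at 36.6, 78.9 and 62.8 against 33.7, 23.3 and 27.6 FPKM (1.00 ± 0.35, limma adjusted p = 0.34). Stromal markers were above 0 in 9 of 13 (median 0.36), none was called, and without arrested library 1 and 2 the median was 0.62 and 0.01. They summed to 2044 to 3720 FPKM in arrested, 1825 to 2587 in competent and 2407 to 3066 in control libraries, with 14 of 14 above 0 in all 6 libraries.

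Channels and proteases of the luminal epithelium, which regulate uterine fluid, gave no calls among 16 and 20 tested genes. Scnn1a, the alpha subunit of the epithelial sodium channel, was at 2.03, 1.48 and 1.78 FPKM after arrested and 0.565, 0.524 and 1.04 FPKM after competent embryo medium (0.70 ± 0.27, limma adjusted p = 0.37). It reached the mean level set for entry through the arrested libraries. Sgk1, the kinase that activates this channel, was at 34.5, 90.6 and 39.2 against 21.7, 22.1 and 41 FPKM (0.86 ± 0.41, limma adjusted p = 0.46). Only arrested library 2 stood above the highest competent library, and the controls, at 97.2, 89.7 and 51 FPKM, stood above all competent libraries. Of 26 junction genes, 16 were below 0 (median -0.07) and none was called. Gjb2, the estradiol-regulated connexin 26, was at 76, 36 and 12.1 against 136, 127 and 119 FPKM (-1.94 ± 0.51, limma adjusted p = 0.23). Klk1, a tissue kallikrein protease, was at 74, 38.7 and 54 against 321, 129.7 and 135 FPKM (-1.71 ± 0.39, limma adjusted p = 0.19), and Tjp3, a tight junction scaffold, at 59, 44.7 and 28.8 against 85, 81.1 and 84.1 FPKM (-0.96 ± 0.23, limma adjusted p = 0.20). In these 3 genes all arrested libraries were below all competent libraries.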

How the data were processed

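The submitters sequenced whole mouse uterus RNA from 1 µg per library in 9 libraries, 3 per group. Per the submitters' processing notes, the tools were Bowtie 0.12.2 for alignment (build mm9) and Cufflinks, of a version not given in the sources read. The deposited transcript FPKM, their confidence interval ends in FPKM and the mean coverage signal per transcript are the authors' values. One control library had no header, so its columns were read in the order of the others. Coordinates of 98.8% of the 92839 annotated transcripts were those of GENCODE vM1 on NCBIM37 (mm9), and at most 1356 were not in it and were left out. Between 73.4 and 74.7% of annotated transcripts were at 0.

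FPKM were summed per gene in Python 3.11.15 with pandas 2.3.3. The test was that of limma 3.58.1 (R 4.3.3) for log2(FPKM + 1) values, 1 fit of 9 libraries with group means and a mean trend (9.01 degrees of freedom, 3.01 of them prior), adjusted by Benjamini-Hochberg over 12027 genes at 0.05. Tested on simulated data with 200 changed genes, the fit recovered 43.7% of changes of log2 1 (3.33 false calls) and 87.3% of log2 2 (11.3 false calls). The simulation drew independent normal noise of equal spread in every group, and changed only genes with a mean log2(FPKM + 1) above 3. The real median SD was 0.339 in arrested and 0.205 in competent libraries, and Cd83 and Tmem194 lie below that level. These rates therefore need not hold for this comparison. Genes were named by rule: called genes with groups apart, 4 more of smallest p where few were called, up to 3 per list and a set of fixed names. Exceptions are stated. Members, lists and tests were chosen with earlier results of these data known. Lists are described by counts and medians, with no test. Promoters are from RefSeq (GRCm38.p6), found for 9 of the 12 called genes. Replicate numbers were checked for pairing by correlation and were not used as pairs, which does not show that pairing was absent.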

Additional observations from a re-analysis of the deposited data

How the results depend on the processing

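Called genes numbered 12 (4 higher, 8 lower), and from 8 to 14 with a pseudocount of 0.1 or 5, a 5 FPKM minimum, size factors, quantile normalization, robust moderation, no mean trend, array weights or the transcript of highest mean FPKM. Within that range the lower genes numbered 4 with no mean trend and 5 with array weights or with the transcript of highest mean FPKM. There were 6 calls (3 lower) with no filter on low values, 19 (8 higher) with failed estimates kept, and 24 (10 higher, 14 lower) where failed estimates were judged by group. With assembled transcripts added there were 33 calls (12 higher, 21 lower), of which 8 were among the 12, and 20 (9 higher) where failed estimates were also kept, a setting chosen after seeing the data. Coverage in place of FPKM gave 29 (8 higher, 21 lower), 11 of them among the 12. Only 6 libraries, or a replicate block, gave 0 calls in limma (0 higher, 0 lower), with 1171 and 1463 genes at an unadjusted p below 0.05. Correlations of same-numbered libraries ran from -0.071 to 0.175 and those of differently numbered libraries from -0.128 to 0.144. The numbers were not taken as pairs, which does not show that pairing was absent.

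Leaving out each library gave 0 to 41 calls (0 to 11 higher, 0 to 30 lower): 2, 0 and 0 without competent 1, 2 and 3 (950 and 937 genes at an unadjusted p below 0.05 for the last 2), 12, 41 and 20 without arrested 1, 2 and 3, and 6, 9 and 11 without control 1, 2 and 3. Gtpbp8 turned to 0.26 with the transcript of highest mean FPKM, and Asna1 to 1.28 with assembled transcripts. List medians kept within their spread in 1229 of the alternative values and moved further in 44, and no dendritic and mast cell marker was left at the 5 FPKM minimum. Read depth is unknown, so no counting error was computed from reads. The deposited confidence intervals, such as 609 to 639 FPKM for Lcn2 in arrested library 3, give an estimation error per transcript and were not used in the tests.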

Other observations

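Genes of retinoid handling and of the clock were listed too, and none was called among 11 and 15 tested. Aldh1a1, which makes retinoic acid, stood at 17.1, 12.1 and 8.42 FPKM in arrested and 6.61, 2.15 and 4.01 in competent libraries (1.40 ± 0.42, limma adjusted p = 0.29), and Rbp4, the retinol carrier, at 9.41, 30.5 and 10.3 and 4.52, 5.11 and 6.67 FPKM (1.28 ± 0.40, limma adjusted p = 0.31). Scel, an envelope protein gene of stratified epithelia, stood at 3.3, 4.19 and 3.98 and 0.948, 0.266 and 0.82 FPKM (1.54 ± 0.27, limma adjusted p = 0.098), and Zbp1, an interferon-induced nucleic acid sensor, at 10.9, 5.06 and 6.06 and 21.2, 16.8 and 22 FPKM (-1.38 ± 0.34, limma adjusted p = 0.20). In all 4 genes the arrested and competent libraries did not overlap. Scel reached the mean level set for entry through the arrested libraries.

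Arrested library 3, which stood apart on the leading component, held far more RNA of a few genes than the other libraries. Spp1, which encodes the secreted adhesion protein osteopontin, stood at 26.6, 25.6 and 1396 FPKM in arrested, 20.8, 28.7 and 29 in competent and 25.1, 16.4 and 29.5 in control libraries, and Cyp26a1 at 299 FPKM in arrested library 3 against at most 12.7 in the other 8. Ihh, the hedgehog ligand that progesterone raises in epithelium, stood at 1.45, 1.41 and 5.09 FPKM in arrested and 1.09, 0.547 and 0.459 in competent libraries. It reached the mean level set for entry through the arrested libraries. Spp1 and Cyp26a1 were named after their values were seen. In contrast Clca3, a secreted chloride channel regulator of epithelium, was at 646, 628 and 84.6 FPKM in arrested and 1648, 1142 and 1310.0 in competent libraries, and Msx2, a homeobox gene of the epithelium, at 14.7, 7.98 and 2.32 and 19.3, 18.2 and 15.9 FPKM, both lowest in that library.

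Among the 1245 untested genes, 121 (9.72%) had groups that did not overlap. Snord23, a small nucleolar RNA, was listed at 319, 357 and 315 FPKM in arrested libraries and at 0 in all others, and Rpl7a at 93.2, 80.5 and 67.7 FPKM in arrested libraries and at 0 in all competent libraries. The mitochondrial ribosomal RNA mt-Rnr1 was listed at 460.4, 284 and 356 FPKM in competent libraries and at 0 in all arrested libraries. Genes that every cell uses are among these zeros, so such values say only what is listed.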
